A study of Mus musculus with 12 samples.

Results

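The nuclear genes for the respiratory chain and ATP synthase were described in left ventricle of C57BL/6J mice 3 days after injections into the heart wall. They were taken as the protein-coding genes whose symbol starts with Nduf, Sdha to Sdhd, Uqcr, Cox4i, Cox5, Cox6, Cox7, Cox8 or Atp5 and that had at least 10 raw counts in at least 4 of the 12 libraries. This gave 95 of the 38293 genes in the count table, or 95 of 13441 protein-coding genes past the same count filter. The symbols matched 108 genes, of which 11 were not protein-coding and 2, Cox7b2 and Cox8c, fell under the filter. All 95 had at least 10 counts in all 12 libraries, so none entered through a single group. Just inside the filter lay Cox6b2, with a mean of 42.9 counts and at least 19 per library, and just outside it Cox7b2, with a mean of 4.25. By complex they were 46 genes of complex I, 8 of complex II, 8 of complex III, 16 of complex IV and 17 of complex V, and 13 of the 95 encode assembly factors and not subunits. The rule leaves out Cyc1 of complex III and 2 small proteins of the ATP synthase and the inner membrane, Usmg5 and Minos1, which are given apart.

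All 12 libraries came from polyadenylated RNA of healthy hearts, which carry no infarct or transgene per the labels. In each, the thorax was opened under anaesthesia and 2 injections of 10 µl were made into the muscle. The 4 PBS libraries came from ventricle injected with saline, the 4 Upy-PEG libraries from ventricle injected with a hydrogel of poly(ethylene glycol) joined by ureidopyrimidinone groups, and the 4 antimiR-195 libraries from ventricle injected with the same hydrogel carrying antimiR-195, an oligonucleotide against the microRNA miR-195. There is no group with antimiR-195 in saline and no uninjected heart, and the labels do not say whether each library came from a separate mouse, so p-values measure the spread between these samples, which may be technical.

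The respiratory chain sits in the inner mitochondrial membrane. Complex I takes electrons from NADH and complex II takes them from succinate, coenzyme Q carries them to complex III, cytochrome c carries them to complex IV, and complex IV passes them to oxygen. Complexes I, III and IV pump protons, and complex V, the ATP synthase, uses the return flow to make ATP. Most subunits are encoded in the nucleus and imported, while a few core subunits are encoded by mitochondrial DNA. Heart muscle is among the tissues richest in these transcripts, and several complex IV subunits have a heart and muscle form and a form found in most tissues.

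The libraries held 22353241 to 30278621 counts on genes. The first principal component took 35.1% of the variance over 14770 genes along which antimiR-195 replicate 2 (at -60.2) and replicate 3 (at -40.7) lay far from the rest. These libraries also had the most alignments of multi-mapped reads per counted read (0.921 and 0.893, against 0.579 to 0.749 elsewhere) and the steepest fall of log2 CPM with gene length (slopes of -0.23 and -0.14 per doubling, against -0.042 to 0.12). Mitochondrially encoded genes took 12.3% of counts in PBS replicate 1 and 18.7% to 19.5% in the remaining PBS libraries. The labelled tissue was checked on 19 cardiomyocyte markers, which were all detected. Their summed level was 97550 to 139483 CPM (counts scaled to library depth) over the 12 libraries. Medians of the chain, of its complexes and of the other lists for antimiR-195 against Upy-PEG are given below also without antimiR-195 replicates 2 and 3.

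The 95 genes together took 5.002% ± 0.765 of all gene counts in PBS (SD, n = 4, range 4.4% to 6.06%). They took 4.56% ± 0.646 in Upy-PEG (3.68% to 5.10%) and 5.49% ± 1.01 in antimiR-195 (4.54% to 6.85%). The 3 ranges overlapped, with the lowest value in Upy-PEG replicate 1 and the highest in antimiR-195 replicate 2. Depth did not limit most of these genes, whose mean count per library ran from 42.9 for Cox6b2 to 131785.

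Per length, in the authors' RPKM (reads scaled by gene length and library depth), the highest mean levels over the 12 libraries belonged to Cox6a2 (2163), Cox7a1 (1995) and Ndufa4 (1901), followed by Cox8b (1446), Cox5a (1443), Atp5a1 (1437), Cox4i1 (1367), Cox6b1 (1286) and Atp5b (1210). Cox6a2, Cox7a1 and Cox8b encode the heart and muscle forms of small complex IV subunits, and Ndufa4, named as a complex I gene, encodes a protein now placed in complex IV. The order at the top was not resolved by the libraries. Cox6a2 stood at 2106 ± 148 RPKM in PBS (SD, n = 4), 2003 ± 374 in Upy-PEG and 2380 ± 552 in antimiR-195. Cox7a1 stood at 1923 ± 647, 1584 ± 321 and 2476 ± 843, which overlaps Cox6a2 in every group. The lowest levels belonged to Sdhaf3 (1.85 RPKM), Cox6b2 (3.06) and Cox4i2 (10.2). Sdhaf3 encodes an assembly factor of complex II, Cox6b2 a form best known from testis, and Cox4i2 a form best known from lung. Levels of genes with processed copies elsewhere in the genome, such as Atp5l (11.7 RPKM), are uncertain, since reads that map to several places were not counted.

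**Figure D1:**
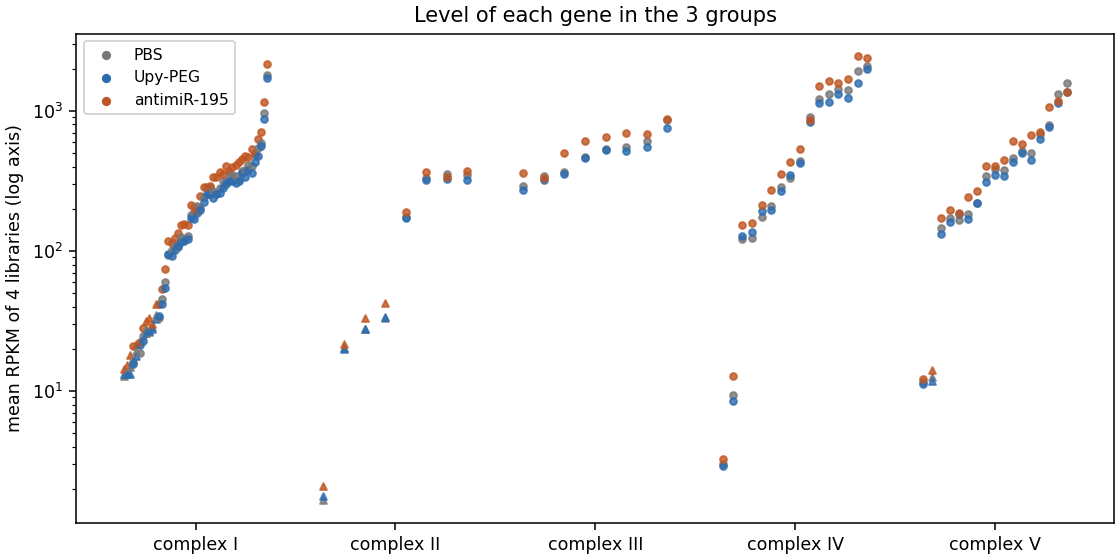
Mean RPKM of 4 libraries (log axis) for each of the 95 genes, ordered within each complex, with a point for each group; triangles are assembly factors. Most subunits lie above 100 RPKM, whereas Sdhaf3 (1.85 on average) and Cox6b2 (3.06) are the lowest.

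The first comparison asked what the hydrogel alone did, against saline. Upy-PEG libraries had lower fitted values than PBS libraries for 90 of the 95 genes, against 55.3% of all genes tested, with a median log2 fold change of -0.18 (0.881-fold) beside -0.028 over all genes. No gene of the chain passed an adjusted p of 0.05 in edgeR's quasi-likelihood test, and no gene of the genome did (0% of 14770). At an unadjusted p under 0.05, 1 of the 95 was lower, Atp5a1, which is a smaller share than the 3.83% of all genes that were lower at that level, and none was higher, where 9.33% of all genes were. DESeq2 and limma voom called 519 (2.17%) and 918 (6.22%) genes of the genome in this comparison, and neither called any of the 95. In no gene of the chain were all 4 Upy-PEG libraries below all 4 PBS libraries, which held for 3.77% of all genes.

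The medians of the 5 complexes lay close together in this comparison, at -0.20 for complex I, -0.13 for complex II, -0.18 for complexes III and IV and -0.20 for complex V. Atp5a1 and Atp5b encode the alpha and beta subunits that form the catalytic head of the ATP synthase. Atp5a1 stood at 5511, 5023, 4488 and 5038 CPM (TMM-scaled) in PBS replicates 1 to 4, and at 3345, 3900, 4529 and 4384 in Upy-PEG. A single Upy-PEG library, replicate 3, reached into the PBS range. Its log2 fold change was -0.31 ± 0.13 (SE, adjusted p = 0.320 in edgeR). For Atp5b it was -0.29 ± 0.14 (adjusted p = 0.386), and for Ndufs1, the largest iron-sulphur subunit of complex I, -0.24 ± 0.12 (adjusted p = 0.442). Those with values above 0 were Ndufa4l2, Atp5g2, Cox6a1, Cox8a and Sdhaf3, between 0.020 and 0.083.

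The Upy-PEG value rested largely on 1 library. Without Upy-PEG replicate 1 the median of the 95 genes was -0.048, with 28 higher and 67 lower, and without PBS replicate 1 it was -0.082. Markers of several other cell types differed between the same groups. Of 15 macrophage markers 14 were higher in Upy-PEG (median 0.76), with a summed level of 1420 to 2176 CPM against 742 to 1171 in PBS, and all 10 fibroblast markers were higher (median 0.62). All 8 erythroid markers were lower (median -0.96), at 313 to 588 CPM against 481 to 1526. All 19 cardiomyocyte markers were lower (median -0.29), at 97550 to 117779 CPM against 118099 to 139483, and no gene of these lists was at 0 in every library. In tissue RNA, fewer cardiomyocytes and less of these transcripts per cardiomyocyte cannot be told apart, and the part of these markers in the result was not tested.

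The second comparison asked what antimiR-195 added to the hydrogel. All 95 genes had higher fitted values with antimiR-195 than with Upy-PEG alone, where 49.2% of all genes did. Their median log2 fold change was 0.46 (1.37-fold), beside -0.0051 over all genes, and single genes ran from 0.16 for Atp5a1 to 0.79 for Cox7a1. At an unadjusted p under 0.05, 64 of the 95 were higher, against 6.67% of all genes tested. None passed after adjustment over all 14770 genes, where the smallest adjusted p of the 95 was 0.364 in edgeR. The whole genome gave 0 calls in edgeR (0%), 13 in DESeq2 (0.0543%) and 0 in limma voom (0%), and none of them lay in the chain. In 2 of the 95 genes, Uqcrb and Ndufaf5, all antimiR-195 libraries lay above all Upy-PEG libraries, against 1.94% of all genes; Ndufaf5 is named after its values were seen.

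Complex I genes had a median of 0.46 in this comparison, with 34 of 46 at an unadjusted p under 0.05. Its 7 nuclear core subunits, among which are those that hold the flavin and iron-sulphur centres, spread from 0.21 to 0.56. Ndufv2, a core subunit with an iron-sulphur cluster, stood at 405, 548, 678 and 654 CPM in Upy-PEG and at 714, 1126, 934 and 595 in antimiR-195. The highest values were in antimiR-195 replicates 2 and 3, and replicate 4 fell inside the Upy-PEG range. Its log2 fold change was 0.56 ± 0.20 (SE, adjusted p = 0.364 in edgeR). Ndufs1 stood at 508, 631, 741 and 734 CPM in Upy-PEG and at 835, 750, 719 and 722 in antimiR-195, with replicate 1 the highest of its group. The ranges overlapped, and the log2 fold change was 0.21 ± 0.13. The 8 assembly factors of complex I are represented by Ndufaf1, an early chaperone of the membrane arm. It stood at 35.5, 40.6, 53.3 and 56.6 CPM in Upy-PEG and at 59.2, 79.8, 74.2 and 52.1 in antimiR-195. Replicate 4 was again the antimiR-195 library inside the Upy-PEG range, and the log2 fold change was 0.51 ± 0.17 (adjusted p = 0.364 in edgeR). Ndufab1, the mitochondrial acyl carrier protein that is also a complex I subunit, had 0.43 ± 0.18.

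Complex II, the succinate dehydrogenase of the tricarboxylic acid cycle, had the smallest median of the 5 complexes at 0.35, with 4 of 8 genes at an unadjusted p under 0.05. Sdha encodes the flavoprotein that oxidises succinate. It stood at 1040, 1195, 1419 and 1135 CPM in Upy-PEG and at 1605, 1253, 1263 and 1399 in antimiR-195, and the groups overlapped with a log2 fold change of 0.20 ± 0.13 (SE). Sdhb, the iron-sulphur subunit, had 0.36 ± 0.20. Sdhaf3, the lowest of the set per length, stood at 6.71, 8.79, 9.40 and 9.79 CPM in Upy-PEG and at 9.74, 13.6, 11.9 and 9.56 in antimiR-195, with 2 of 4 antimiR-195 libraries above the Upy-PEG range.

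Complex III had a median of 0.50, with 7 of 8 genes at an unadjusted p under 0.05. Uqcrb, a small subunit at the quinone-binding side of the complex (chr13:66900617-66905378, GRCm38), had the lowest p of the 95 genes. It stood at 222, 294, 332 and 327 CPM in Upy-PEG and at 391, 601, 513 and 337 in antimiR-195. No antimiR-195 value lay below a Upy-PEG value, although replicate 4 stood close to the highest of them. The log2 fold change was 0.65 ± 0.19 (SE, unadjusted p = 0.0037, adjusted p = 0.364 in edgeR). Uqcrc1, a core subunit related to mitochondrial processing peptidases, had 0.36 ± 0.16, and Uqcrfs1, the Rieske iron-sulphur protein, had 0.45 ± 0.19.

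Complex IV, cytochrome c oxidase, had a median of 0.47, with 9 of 16 genes at an unadjusted p under 0.05. Cox7a1, the heart and muscle form of subunit VIIa (chr7:30184144-30186078, GRCm38), stood at 367, 527, 685 and 619 CPM in Upy-PEG and at 740, 1331, 1110 and 613 in antimiR-195. Replicates 2 and 3 of antimiR-195 were the highest, and replicate 4 lay inside the Upy-PEG range. The log2 fold change was 0.79 ± 0.27 (SE, adjusted p = 0.364 in edgeR). Cox4i1, the regulatory subunit that binds ATP, stood at 1199, 1656, 2000 and 1983 CPM in Upy-PEG and at 2231, 3412, 3297 and 1717 in antimiR-195, again with replicate 4 inside the Upy-PEG range. Its log2 fold change was 0.64 ± 0.23. Cox5a, which binds thyroid hormone metabolites, had 0.42 ± 0.21, and Cox7a2l had 0.42 ± 0.19.

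Complex V had a median of 0.43, with 10 of 17 genes at an unadjusted p under 0.05, and it held both the smallest values and some of the largest. Atp5a1 stood at 3345, 3900, 4529 and 4384 CPM in Upy-PEG and at 5130, 4060, 4426 and 4412 in antimiR-195, a log2 difference of 0.16 ± 0.13 (SE) with overlapping groups. Atp5g1, which encodes subunit c of the membrane ring, stood at 452, 566, 738 and 709 CPM in Upy-PEG and at 773, 1151, 947 and 659 in antimiR-195. Replicate 4 was the only antimiR-195 library not above every Upy-PEG library, and the log2 fold change was 0.52 ± 0.18 (adjusted p = 0.364 in edgeR). The gene Atp5g2, for the same mature subunit, had 0.17 ± 0.16.

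Single libraries carried much of this comparison. The count of 64 genes, beside 6.67% of all genes, became 8 without antimiR-195 replicate 2 (2.66% of all genes) and 22 without antimiR-195 replicate 3 (2.75%). It became 12 without Upy-PEG replicate 1 (1.94%) and 23 without Upy-PEG replicate 2 (3.47%). The count rose to 82 without antimiR-195 replicate 4 (13.03%) and to 71 without antimiR-195 replicate 1 (8.18%). It rose to 74 without Upy-PEG replicate 3 (7.80%) and to 70 without Upy-PEG replicate 4 (6.79%). Without 1 PBS library it was 55 to 66 (5.50% to 7.20%). With any 1 library left out, 93 to 95 of the 95 genes stayed higher. The median ranged from 0.28 without antimiR-195 replicate 2 to 0.58 without antimiR-195 replicate 4. Scaling by library size alone moved the median of all genes to -0.16 and that of the 95 to 0.31, with all 95 still higher and 16 at an unadjusted p under 0.05 (0.982% of all genes). In limma voom with sample weights the median was 0.28, with 92 of the 95 higher and 19 at an unadjusted p under 0.05 (3.64% of all genes). In limma-trend on log2(RPKM + 1) it was 0.29 on that scale, with 94 higher and 7 at that level (0.919%).

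Markers of several other cell types differed in this comparison too. All 15 macrophage markers had lower values with antimiR-195 than with Upy-PEG (median -0.29, 6 at an unadjusted p under 0.05), and 8 of 10 fibroblast markers did (median -0.70, 5 at that level). Over all 14770 genes tested, 945 were lower and 985 higher at that level. Of 8 erythroid markers 7 were higher, all 7 at that level (median 0.96), with a summed level of 539 to 1301 CPM against 313 to 588. Of 19 cardiomyocyte markers 16 were higher (median 0.44), 10 at that level. Endothelial markers had a median of 0.045, with 8 of 10 higher and 0 at that level. Those of pericytes and smooth muscle had -0.22, with 8 of 10 lower and 1 at that level in each direction. Skeletal muscle markers had 0.092, with 3 of 5 higher, and the 2 adipocyte markers tested had 1.4. The part of these markers in the result was not tested.

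The third comparison set antimiR-195 with hydrogel against saline. It shares its libraries with the other comparisons, so its values are not separate evidence. Of the 95 genes 89 had higher values, where 50.8% of all genes did, with a median log2 fold change of 0.32 (1.25-fold) beside 0.0072 over all genes. No gene passed an adjusted p of 0.05 in edgeR, in the chain or in the genome (0%), while DESeq2 called 51 genes (0.213%) and limma voom 1 (0.00677%), none of the chain. At an unadjusted p under 0.05, 5 of the 95 were higher, a smaller share than the 8.65% of all genes. They were Uqcrb, Sdhaf3, Cox8a, Cox7a2 and Ndufs4, of which Ndufs4, an accessory subunit of complex I, is named after its values were seen.

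Sdhaf3 stood at 7.43, 8.78, 9.28 and 8.72 CPM in PBS and at 9.74, 13.6, 11.9 and 9.56 in antimiR-195. It was the only gene of the 95 whose groups did not overlap in this comparison, against 2.74% of all genes that were higher without overlap. The log2 fold change was 0.39 ± 0.15 (SE, adjusted p = 0.270 in edgeR). Uqcrb stood at 396, 288, 304 and 309 CPM in PBS against 391, 601, 513 and 337 in antimiR-195, a log2 difference of 0.51 ± 0.19 (adjusted p = 0.257), with PBS replicate 1 inside the antimiR-195 range. The 6 genes with values below 0 were Atp5a1 (-0.15), Atp5b (-0.095), Ndufs1 (-0.030), Sdha (-0.023), Cox5b (-0.0095) and Uqcrc2 (-0.00059).

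The count of 5 genes ranged from 0 without antimiR-195 replicate 2 (3.68% of all genes) to 48 without antimiR-195 replicate 4 (14%). It was 23 without PBS replicate 1 (11%), 18 without antimiR-195 replicate 1 (11.7%) and 13 without Upy-PEG replicate 1 (9.41%). It was 4 without Upy-PEG replicate 3 (8.27%). It was 1 to 3 without PBS replicate 2, 3 or 4, Upy-PEG replicate 2 or 4, or antimiR-195 replicate 3. The shares of all genes were then 4.46% to 7.74%. The median was 0.13 without antimiR-195 replicate 2, and -0.029 without antimiR-195 replicates 2 and 3.

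**Figure D2:**
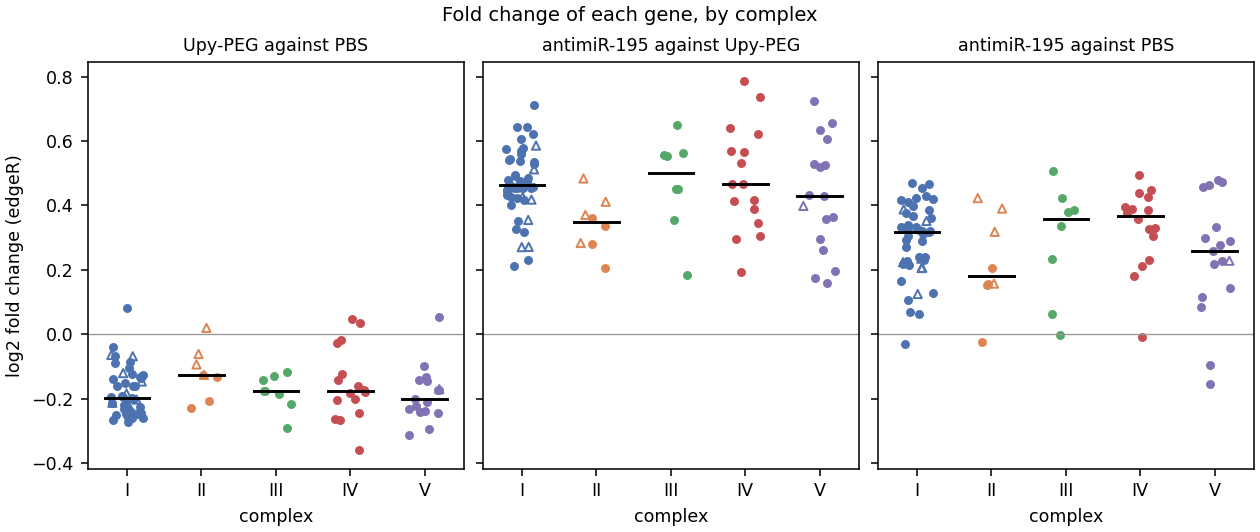
Log2 fold change of each of the 95 genes from edgeR in the 3 comparisons, by complex; circles are subunits, open triangles assembly factors, bars the median of the complex. In the antimiR-195 against Upy-PEG panel all 95 points lie above 0, and the lowest is Atp5a1 at 0.16.

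Seen library by library, the genes of the chain moved together, and the libraries of each group spread widely. The median deviation of the 95 genes from their mean over all libraries, in log2 CPM, was 0.24, -0.14, -0.21 and 0.011 in PBS replicates 1 to 4. In Upy-PEG it was -0.67, -0.23, 0.044 and -0.0089. In antimiR-195 it was 0.051, 0.71, 0.39 and -0.16. Upy-PEG replicates 3 and 4 and antimiR-195 replicates 1 and 4 thus lay within the range of the PBS libraries.

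Upy-PEG replicate 1 was the lowest of the 12 libraries for 90 of the 95 genes, and all 95 were below their mean there. AntimiR-195 replicate 2 was the highest library for 79 genes, antimiR-195 replicate 3 for 8 and PBS replicate 1 for 4. Each complex followed the same libraries. In Upy-PEG replicate 1 the medians were -0.68 for complex I, -0.48 for complex II, -0.67 for complex III, -0.71 for complex IV and -0.64 for complex V. In antimiR-195 replicate 2 they were 0.70, 0.46, 0.77, 0.82 and 0.63 in the same order, so complex II stood nearest to 0 in both libraries. Assembly factors stood nearer to 0 than subunits in these libraries, at -0.56 against -0.68 and at 0.54 against 0.74.

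**Figure D3:**
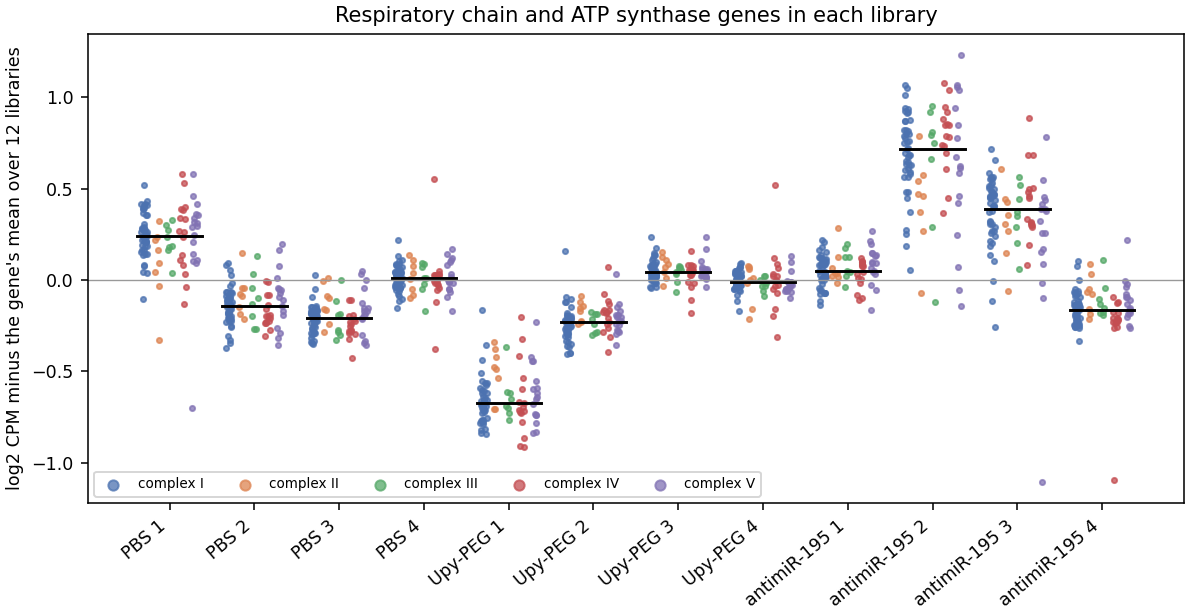
Log2 CPM of each of the 95 genes minus its mean over the 12 libraries, for each library; points are genes coloured by complex and bars the median of all 95. Upy-PEG replicate 1 is lowest (median -0.67) and antimiR-195 replicate 2 highest (0.71).

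The differences were smaller with Upy-PEG replicate 1 and antimiR-195 replicate 2 left out together. The median of the 95 genes was then -0.049 for Upy-PEG against PBS, 0.16 for antimiR-195 against Upy-PEG and 0.13 for antimiR-195 against PBS. At an unadjusted p under 0.05, 1 of the 95 was higher in antimiR-195 than in Upy-PEG, against 1.17% of all genes, and 2 were higher than in PBS, against 4.22%. Values for antimiR-195 against Upy-PEG were above 0 for 88 of the 95. Without antimiR-195 replicates 2 and 3 the median of this comparison was 0.14, with 91 higher and 1 at an unadjusted p under 0.05, Sdha, against 2.45% of all genes. By complex the medians were then 0.13 for complex I, 0.12 for complex II, 0.18 for complex III, 0.11 for complex IV and 0.19 for complex V. The log2 fold change was 0.30 ± 0.26 (SE) for Cox7a1, 0.31 ± 0.17 for Uqcrb, 0.20 ± 0.19 for Ndufv2, 0.21 ± 0.23 for Cox4i1, 0.26 ± 0.18 for Ndufaf1 and 0.22 ± 0.18 for Atp5g1. Each of these lay below its value over all libraries, whereas Sdha (0.33 ± 0.14), Ndufs1 (0.25 ± 0.15) and Atp5a1 (0.24 ± 0.16) lay above theirs. Cardiomyocyte markers had a median of 0.25 there, macrophage markers -0.61 and erythroid markers 0.44.

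Cardiomyocyte markers were mostly genes of the contractile apparatus and calcium handling, with Ckm, Mb and Fabp3, of energy and oxygen supply, among them. They were likewise lowest in Upy-PEG replicate 1 and highest in antimiR-195 replicates 2 and 3. Their median deviation was 0.30, -0.026, -0.11 and 0.022 in PBS, -0.61, -0.26, 0.00086 and -0.071 in Upy-PEG, and 0.11, 0.39, 0.35 and -0.019 in antimiR-195. In Upy-PEG replicate 1 they stood close to the respiratory genes (-0.61 against -0.67), while in antimiR-195 replicate 2 the respiratory genes stood higher (0.71 against 0.39). Short genes of all kinds were also high in the latter. The 1059 genes under 1000 bases had a median of 0.64 in antimiR-195 replicate 2 and 0.38 in replicate 3. They were also lowest in Upy-PEG replicate 1, at -0.29.

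Many respiratory genes are short, 37 of the 95 being under 1000 bases, 31 from 1000 to 2000 and 27 of 2000 or more. For antimiR-195 against Upy-PEG the members' medians by these classes were 0.47, 0.48 and 0.37, beside 0.32, 0.19 and -0.052 for all genes of the same classes. The gap between members and all genes was larger in the longest class than in the shortest, as a description with no test. The part of gene length in these values was not tested. With each library's length slope as a covariate, the median for antimiR-195 against Upy-PEG was 0.16 with 89 of the 95 higher, and 20 at an unadjusted p under 0.05 against 3.66% of all genes. That for antimiR-195 against PBS was -0.098. For Upy-PEG against PBS it was -0.27, beside -0.18 without the covariate, with 93 of the 95 lower. At an unadjusted p under 0.05, 69 of the 95 were then lower, against 11% of all genes, where the fit without the covariate had 1.

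The same covariate gave the only calls in the chain. For Upy-PEG against PBS 6 of the 95 genes were lower at an adjusted p under 0.05 in edgeR, against 2.25% of all genes called in either direction. They were Ndufa2, Ndufa13, Ndufb7, Cox7a1, Ndufs6 and Ndufa3, with adjusted p from 0.0409 to 0.0454, and all but Cox7a1 are accessory subunits of complex I named after their values were seen. Cox7a1 had -0.46 ± 0.10 (SE) with the covariate, and -0.36 ± 0.27 (adjusted p = 0.639) without it. The slope is taken from the same libraries and differs between the groups, so this fit and the group difference are not independent.

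**Figure D4:**
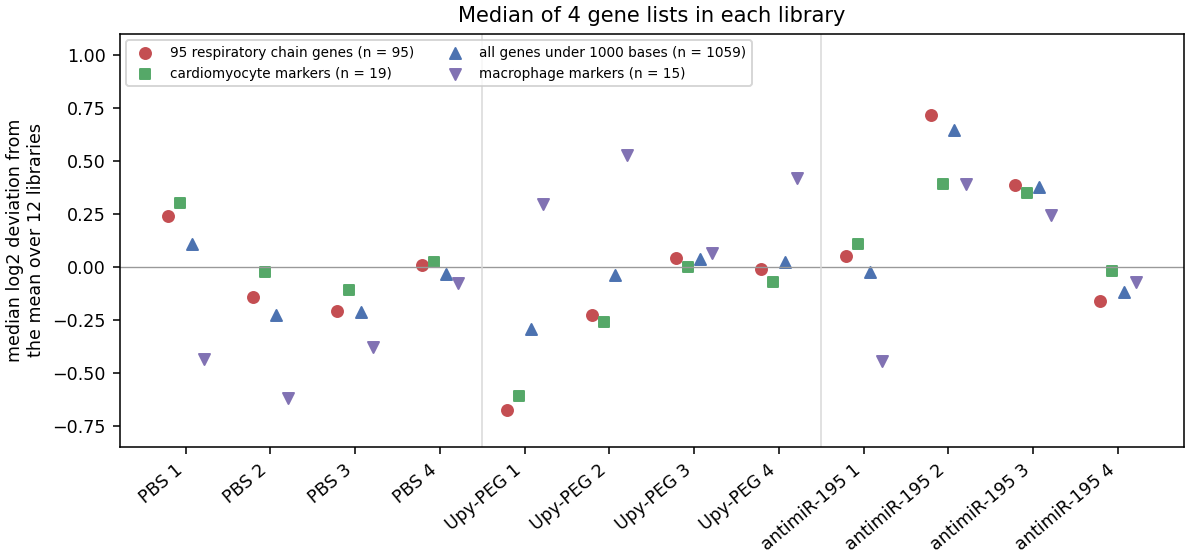
Median log2 deviation from the mean over 12 libraries for the 95 respiratory chain genes, 19 cardiomyocyte markers, 15 macrophage markers and 1059 genes under 1000 bases, in each library. Respiratory genes, cardiomyocyte markers and short genes are all lowest in Upy-PEG replicate 1 (-0.67, -0.61 and -0.29). Each of these lists is highest in antimiR-195 replicate 2 (0.71, 0.39 and 0.64).

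Ratios of sister forms within a library do not depend on its scaling. The forms of a pair differ in length, however, and the slope of log2 CPM with gene length differed between libraries. Cox7a1 has 364 bases against 754 for Cox7a2, Cox8b 362 against 545 for Cox8a, and Atp5g1 4912 against 2181 for Atp5g3. The part of gene length in these ratios was not tested. Of 7 pairs in 3 comparisons (21 two-sided exact permutation tests, smallest p possible 0.0286), 4 tests reached that p, and after Benjamini-Hochberg adjustment over the 21 all 4 stood at 0.150. The ratio of Cox7a1, the heart and muscle form, to Cox7a2, the general form, was 7.68, 5.15, 5.20 and 4.92 in PBS, in RPKM. It was 4.42, 4.54, 4.67 and 4.60 in Upy-PEG and 5.32, 5.61, 6.68 and 5.07 in antimiR-195. All 4 Upy-PEG libraries lay below all 8 others, and their spread was small. The log2 difference was -0.31 against PBS and 0.31 for antimiR-195 against Upy-PEG (exact permutation p = 0.0286, adjusted p = 0.150 for each). Without PBS replicate 1 the first was -0.16, and without antimiR-195 replicate 3 the second was 0.23. Since the 2 tests share the Upy-PEG libraries, they do not support each other.

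The ratio of Cox8b to Cox8a, the heart and general forms of subunit VIII, was 10.4, 7.32, 7.07 and 7.25 in PBS, 4.96, 6.99, 6.95 and 6.79 in Upy-PEG, and 6.88, 10.9, 6.53 and 6.42 in antimiR-195. Upy-PEG lay below PBS in every library, narrowly in replicates 2, 3 and 4. The log2 difference was -0.31 (exact permutation p = 0.0286, adjusted p = 0.150), and -0.18 without PBS replicate 1. The ratio of Cox6a2 to Cox6a1 ran from 10.9 to 18.7 over the 12 libraries and overlapped between all groups (adjusted p from 0.50 to 0.788, exact permutation tests). Cell types that express the general forms were not held equal between groups, and the part of the higher macrophage and fibroblast markers in Upy-PEG was not tested.

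Among genes for the ring subunit c, the ratio of Atp5g1 to Atp5g3 was 0.213, 0.206, 0.216 and 0.204 in Upy-PEG and 0.223, 0.230, 0.312 and 0.226 in antimiR-195. The groups did not overlap, with antimiR-195 replicate 3 far above the rest. The log2 difference was 0.23 (exact permutation p = 0.0286, adjusted p = 0.150), and 0.11 without that library. Cox4i2 to Cox4i1, Ndufa4l2 to Ndufa4 and Atp5g1 to Atp5g2 overlapped between the groups in every comparison. Ndufa4l2, a relative of Ndufa4 known to be induced by low oxygen, stood at 0.0160 and 0.0144 of Ndufa4 in Upy-PEG replicates 1 and 2, and at 0.00943 to 0.0114 in the other 10 libraries.

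**Figure D5:**
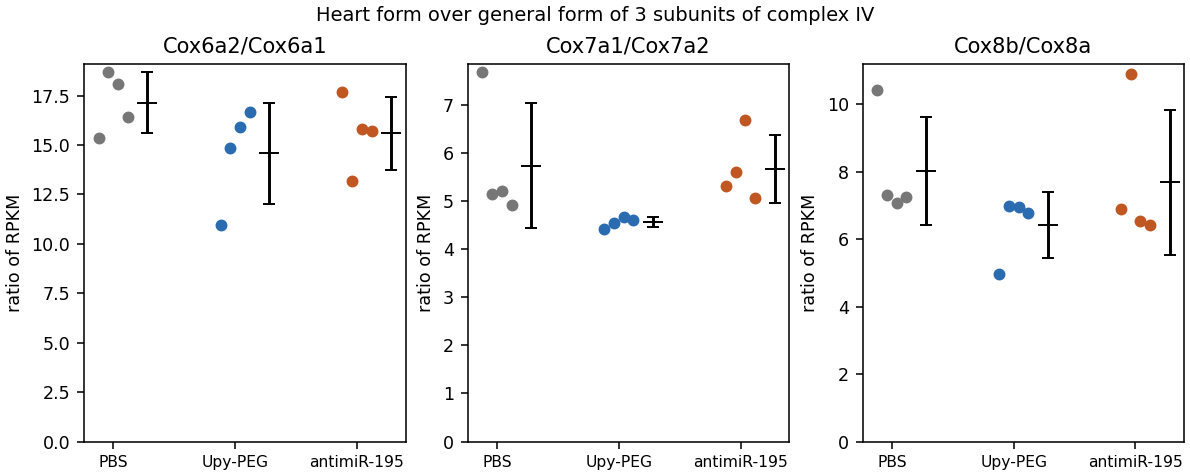
RPKM ratio of the heart and muscle form to the general form of 3 complex IV subunits, a point per library, with the group mean and SD (n = 4) beside them. For Cox7a1 over Cox7a2 the Upy-PEG libraries lie between 4.42 and 4.67, below the other 8.

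Other genes of mitochondrial energy supply, outside the symbol rule, were set beside the chain, and none passed an adjusted p of 0.05 in edgeR. Over all genes tested, 49.2% were higher for antimiR-195 against Upy-PEG and 6.67% were higher at an unadjusted p under 0.05. In that comparison 34 of 38 further assembly factors had higher values (median 0.27), 16 of them at an unadjusted p under 0.05. Cox11, which inserts copper into complex IV, had 0.51 ± 0.13 (SE), and Timmdc1, an assembly factor of complex I, had 0.38 ± 0.11. Of 18 genes for electron carriers and coenzyme Q synthesis 17 were higher (median 0.25), with 6 at that level, including Cycs, cytochrome c (0.44 ± 0.15), and Coq7 (0.53 ± 0.20). Of 18 genes of the tricarboxylic acid cycle 16 were higher (median 0.25), with 7 at that level, including Pdhb (0.45 ± 0.16) and Sucla2 (0.41 ± 0.15). The list of carriers of adenylate, phosphate and creatine phosphate also held the small proteins Usmg5 and Minos1, which are not carriers. All 14 tested genes of that list were higher (median 0.34, 7 at that level). Usmg5 had 0.82 ± 0.26 and Minos1 0.61 ± 0.23. Without antimiR-195 replicates 2 and 3 the median was 0.14 for the assembly factors (5 of 38 higher at that level). It was 0.20 for electron carriers and coenzyme Q (0 of 18) and 0.22 for the tricarboxylic acid cycle (1 of 18). For the list with Usmg5 and Minos1 it was 0.14 (0 of 14). Over all genes 2.45% were higher at that level without these libraries.

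The 24 transcriptional regulators of mitochondrial biogenesis had a median of 0.028, with 1 gene at an unadjusted p under 0.05 for antimiR-195 against Upy-PEG. Without antimiR-195 replicates 2 and 3 these were 0.14 and 4, where 2.45% of all genes were higher at that level. For Upy-PEG against PBS 19 of the 24 were lower (median -0.16). Polrmt, the mitochondrial RNA polymerase, had -0.33 ± 0.10 (SE, adjusted p = 0.162 in edgeR) there. Mterf1a, a mitochondrial transcription terminator, had 0.80 ± 0.27 for antimiR-195 against PBS (adjusted p = 0.253), at a mean of 0.897 CPM in PBS and 1.57 in antimiR-195.

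Of the 13 respiratory genes of mitochondrial DNA, 7 were tested. The other 6 had at most 7 counts in any library, while the tested ones had at least 1945, so the deposited counts do not measure those 6. The 7 had a median of 0.29 for antimiR-195 against Upy-PEG, and 0.32 without antimiR-195 replicates 2 and 3. Their median deviation was highest in antimiR-195 replicate 3 (0.50), where the nuclear genes stood at 0.39, and it was -0.29 in Upy-PEG replicate 1, where they stood at -0.67. It was -0.58 in PBS replicate 1, where the nuclear genes stood at 0.24, and -0.19 in antimiR-195 replicate 2, where the nuclear genes stood at 0.71. mt-Nd1 had 0.42 ± 0.18 (SE) for antimiR-195 against Upy-PEG, and mt-Nd6, encoded on the other strand, had -0.69 ± 0.27 for Upy-PEG against PBS (adjusted p = 0.283 in edgeR).

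Promoters of these genes are known for sites of NRF1, of GABPA (an ETS factor), of the estrogen-related receptors and of YY1. RefSeq promoters (GRCm38.p6, 250 bases before to 50 after the start site) were found for 79 of the 95 genes and 27025 genes in all, and exact letters were searched on both strands. The spellings were chosen after the shares of several had been seen. NRF1, as GCGCA and GCGC with any base between them, was in 26.6% of the 79 and 5.19% of all promoters. The ETS core CCGGAAG was in 26.6% and 9.93%, AAGGTCA, for the estrogen-related receptors, in 10.1% and 5.38%, and AANATGGCG, for YY1, in 15.2% and 2.76%. At least 1 of these 4 was in 46 of the 79 (58.2%), against 20.6% of all. The 27025 genes were neither limited to the genes tested here nor matched to the chain by level. For comparison, the Sp1 core GGGCGGG was in 36.7% and 27.9%, CCAAT in 43.0% and 41.1%, and TATAAA in 8.86% and 15.7%. A match describes the letters and is not a measured binding site.

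The windows below show these letters, in capitals, beside the start sites of members described above, 30 bases each, read 5′ to 3′ on the gene's strand. In Uqcrc1, Atp5g2 and Sdha the NRF1 letters lie 31 bases after, 42 before and 10 before the start site. In Cox8a and Sdhb the ETS letters lie 5 bases before and 7 after it. In Atp5g3 those of the estrogen-related receptors lie 52 bases before it, and in Atp5b and Ndufs7 those of YY1 lie 17 and 25 bases after it.
Uqcrc1: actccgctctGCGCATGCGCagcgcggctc
Atp5g2: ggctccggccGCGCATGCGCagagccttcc
Sdha: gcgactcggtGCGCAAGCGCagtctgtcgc
Cox8a: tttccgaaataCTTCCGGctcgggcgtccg
Sdhb: gctcggagaaaCCGGAAGcggccttccact
Atp5g3: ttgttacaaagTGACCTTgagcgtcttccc
Atp5b: acccggattcCGCCATGTTgagtcttgtgg
Ndufs7: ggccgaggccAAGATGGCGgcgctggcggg
These windows lie at chr9:108936668-108936697 on the plus strand for Uqcrc1, chr15:102671070-102671099 on the minus strand for Atp5g2 and chr13:74350231-74350260 on the minus strand for Sdha. They lie at chr19:7217603-7217632 on the minus strand for Cox8a, chr4:140961266-140961295 on the plus strand for Sdhb and chr2:73911360-73911389 on the minus strand for Atp5g3. Those of Atp5b and Ndufs7 are chr10:128083313-128083342 and chr10:80249463-80249492, both on the plus strand.

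The drug of this study is directed at miR-195, which shares bases 2 to 8, its seed, with other members of the miR-15 family. The mature RefSeq sequences are shown with the seed in capitals, since a site in a transcript pairs with those bases.
mmu-miR-195a-5p: uAGCAGCAcagaaauauuggc
mmu-miR-15a-5p: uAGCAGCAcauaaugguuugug
mmu-miR-16-5p: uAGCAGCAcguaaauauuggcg
mmu-miR-497a-5p: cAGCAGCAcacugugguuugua
A single annotated 3′ untranslated region per gene, the longest, was searched. The 7 letters that pair with the seed, TGCTGCT, occurred in 4 of the 95 genes (4.21%), against 24.8% of 13309 tested genes. These regions are short in the chain, with a median of 235 bases against 1192. The genes were Atp5g1 with 3 sites and Cox6b2, Ndufb4 and Sdhaf4 with 1 each. Sites in Sdhaf4 and Cox6b2 carry the further A of an 8mer and that of Ndufb4 does not.
Sdhaf4: tgaatagcaaaTGCTGCTAtagatgaggaa
Cox6b2: taaagttattgTGCTGCTAa
Ndufb4: ggaacgtgagcTGCTGCTgaggcgctagct
The capitals mark the match, 133, 159 and 405 bases after the stop codon, at chr1:23996100-23996129, chr7:4751792-4751811 and chr16:37647234-37647263, all on the minus strand (GRCm38). For antimiR-195 against Upy-PEG these 3 genes had 0.48 ± 0.20, 0.31 ± 0.39 and 0.42 ± 0.25 (log2 fold change, SE), and Atp5g1 had 0.52 ± 0.18. These values lie on both sides of the median of all 95 genes, 0.46, of which 91 have no such letters.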

How the data were processed

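Left ventricle RNA of 12 libraries in 3 groups of 4 was analysed. STAR alignment to GRCm38 and HTSeq counting are listed in the submitters' processing notes. The deposited read counts are whole numbers per gene, and tool versions and the annotation release are not given in the sources used here. The authors also deposited RPKM values, used here for levels and for isoform ratios in the text. HTSeq's categories for no gene (6.25% to 8.77% of uniquely aligned reads) and ambiguous reads stayed out of library sizes.

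Counts were tested with edgeR 4.0.16 (R 4.3.3; filterByExpr by group, TMM, quasi-likelihood F-test over all 12 libraries, 9 residual degrees of freedom). P-values were adjusted by Benjamini-Hochberg over 14770 genes at a threshold of 0.05. The SE is the log2 fold change over the root of F. Log2 CPM used a prior count of 2. Isoform ratios were tested as log2 ratios of counts with 0.5 added, by exact permutation over 8 libraries. DESeq2 1.42.0, limma 3.58.1 (voom with sample weights on the counts, limma-trend on log2 RPKM), other filters, scalings and pseudocounts, a length covariate and left-out libraries were alternatives. The edgeR step was tested on simulated counts with a smaller spread than these libraries and without their length slopes. That test therefore does not show how the step behaves under the conditions of these data. Symbols came from GENCODE M21.

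The members and gene lists were chosen with earlier results of these data known. Genes named were, in each comparison, the 3 members with the lowest p in each direction, the isoform pairs, core subunits, the 3 highest and 3 lowest levels, and 2 genes from each other list. Leaving out Upy-PEG replicate 1 and antimiR-195 replicate 2 together was added after seeing the data.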

Additional observations from a re-analysis of the deposited data

Results flagged for a closer look

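Within each group of 4, the value of each described gene, ratio and share was compared with the other 3, and 10 of 147 sets of 4 held a library whose gap to the nearest other exceeded Dixon's critical share of the range for 4 values. Chance alone gives about 1 in 20 such sets. PBS replicate 1 held the most. Its mitochondrially encoded share was 12.34% against 18.68% to 19.47%, its Cox4i2 level 11.04 CPM against 5.893 to 6.702, and its Cox7a1 level 1035 CPM against 563.8 to 635.4. Its log2 count ratio of Cox7a1 to Cox7a2 was 1.891 against 1.247 to 1.328, that of Cox8b to Cox8a 2.792 against 2.232 to 2.282, and that of Atp5g1 to Atp5g3 -1.199 against -1.006 to -0.9899.

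The Cox8b to Cox8a log2 ratio stood apart in every group, at 1.72 in Upy-PEG replicate 1 (others 2.173 to 2.216) and 2.855 in antimiR-195 replicate 2 (others 2.092 to 2.193). These are also the libraries with the lowest and highest median of the respiratory chain genes. The same libraries have the highest and lowest slope of log2 CPM with gene length (0.12 and -0.23). The part of gene length in this ratio was not tested. The log2 ratio of Atp5g1 to Atp5g3 was -0.5098 in antimiR-195 replicate 3 (others -0.9932 to -0.9521), and that of Ndufa4l2 to Ndufa4 was -5.484 in PBS replicate 3 (others -5.666 to -5.647).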

How the results depend on the processing

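The count of genes called over the genome for Upy-PEG against PBS, 0 in edgeR, was 155 at an adjusted p under 0.10, 69 with no filter, 349 without antimiR-195 replicates 2 and 3 and 332 with the length covariate. It was 172 with only the 8 libraries compared, 519 in DESeq2, 918 in limma voom with sample weights and 0 to 150 when 1 library was left out (46 without Upy-PEG replicate 3, 150 without antimiR-195 replicate 2). For antimiR-195 against PBS it was 1 with no filter, 51 in DESeq2 and 1 in limma voom, and for antimiR-195 against Upy-PEG 13 in DESeq2. Without Upy-PEG replicate 1 and antimiR-195 replicate 2 together it was 1 for Upy-PEG against PBS and 1 for antimiR-195 against PBS. Among the settings run, respiratory chain genes were called only with the length covariate, 6 for Upy-PEG against PBS. Their median for antimiR-195 against PBS changed sign with that covariate (-0.098) and without antimiR-195 replicates 2 and 3 (-0.029), which also brought antimiR-195 against Upy-PEG to 0.14. The cause was not tested. With 1 library left out the medians ranged from -0.26 to -0.048 for Upy-PEG against PBS, 0.28 to 0.58 for antimiR-195 against Upy-PEG and 0.13 to 0.44 for antimiR-195 against PBS. In limma voom with sample weights they were -0.075, 0.28 and 0.22, and in limma-trend on log2(RPKM + 1) -0.090, 0.29 and 0.23. Scaling by library size alone gave -0.093, 0.31 and 0.26 beside medians of all genes of 0.073, -0.16 and -0.043. No paired analysis was possible because the labels give no replicate numbers, and those used here follow the order of deposition. Depth limits Cox6b2 (at least 19 counts per library) and little else in the set.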
